A study of Macaca mulatta with 16 samples.

Results

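The genes described here are 10 chaperones and signalling genes of the endoplasmic reticulum (ER), the compartment in which secreted and membrane proteins are folded. They are HSPA5, HSP90B1, CALR, DNAJB9, SDF2L1, PDIA4, HERPUD1, XBP1, ATF4 and DDIT3. Each was found by its gene symbol, each matched 1 row of a table of 22515 rhesus Ensembl genes, and all 10 were among the 19215 genes with enough counts to be tested. Bulk lung RNA was sequenced from 16 rhesus macaque fetuses, 1 library per animal. The study asked how prenatal inflammation, with and without an antenatal corticosteroid, changes the lung of a preterm fetus.

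Preterm controls (n = 4) received no intervention and were delivered at 131 to 135 days of gestation. LPS 16h (n = 4) received 1 mg of E. coli lipopolysaccharide (LPS), a bacterial cell wall component that provokes inflammation, into the amniotic fluid at 129 or 130 days and were delivered 16 hours later at 130 or 131 days. LPS 5d (n = 3) received the same 1 mg at 126 to 129 days and were delivered 5 days later at 131 to 134 days. LPS + Beta-Ac 5d (n = 3) received the same LPS at 126 or 127 days, their dams also received 0.125 mg/kg of betamethasone acetate by intramuscular injection, and delivery followed after 5 days at 131 or 132 days. Term controls (n = 2) received no intervention and were delivered at 156 and 157 days. A single injection of purified LPS is not a lasting infection, so the model covers an early and a late time after 1 exposure. The labels give no sex, no genotype and no sequencing batch for any animal.

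Library totals ran from 20169363 to 28348816 counts in preterm controls, 30596371 to 48052891 in LPS 16h and 20214144 to 27616930 in the other 3 groups, so that every LPS 16h library was deeper than every other. The labels do not say whether the LPS 16h libraries were sequenced apart from the others. Such a difference could not be told apart from that of the LPS 16h group. The lung markers SFTPC (1797 to 7546 CPM, counts scaled to a common library size), SFTPB (2583 to 7640 CPM) and NKX2-1 (47.2 to 166 CPM) were present in all 16 animals. Every CPM below is scaled by the TMM method, which corrects for library size and composition. Genes differ in length and no lengths were used, so a CPM is compared between animals and not between genes. Changes are log2 differences between groups from a limma model over all 16 animals, and a gene is said to rise or fall where its p, adjusted over all 19215 genes by Benjamini-Hochberg, was below 0.05.

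Proteins that fold poorly in the ER set off the unfolded protein response, which is carried by 3 sensors of the ER membrane. IRE1, encoded by ERN1, splices the mRNA of the transcription factor XBP1, ATF6 is cut to release a transcription factor, and PERK, encoded by EIF2AK3, phosphorylates eIF2-alpha, which slows translation while raising that of ATF4. XBP1 and ATF6 drive genes for chaperones and for ER-associated degradation, the pathway that returns failed proteins to the cytosol. ATF4 drives genes for amino acid supply and the factor CHOP, encoded by DDIT3, which is associated with cell death under lasting stress. Secretory cells such as plasma cells, and alveolar type 2 cells that make surfactant, depend on this system. Counts per gene cannot separate spliced from unspliced XBP1 mRNA and say nothing of phosphorylation, cleavage or translation.

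At 16 hours after LPS, 9 of the 10 genes rose against preterm controls and none fell, where 18.7% of all tested genes rose and 19.6% fell. The 6 chaperones and folding factors and XBP1 reached 2.72 to 5.65 times their control level and HERPUD1 2.08 times, ATF4 was 1.32 times its control level, and DDIT3 did not pass the test. With the 2-fold minimum that the study used, 8 genes were higher and none lower, against 8.33% and 6.06% of all genes. In 8 of the 10, every LPS 16h animal was above every preterm control, which held for 17% of all tested genes, while 16.6% were separated downwards. The median log2 change over the 10 genes was 1.71, and over all tested genes it was -0.087. Scaled by library totals alone, 29.1% of all calls were rises in place of 48.8%, and 8 of the 10 genes rose. Preterm controls serve in all 4 comparisons against them, so those comparisons are not independent.

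HSPA5 encodes BiP, the main Hsp70 chaperone of the ER, which also holds the sensors inactive at rest. Its levels in the preterm controls were 369, 357, 481 and 493 CPM (animals 092, 101, 113 and 209), and in LPS 16h they were 1383, 2461, 1478 and 2267 CPM (animals 026, 029, 035 and 038). The lowest LPS 16h animal stood well above the highest control, and the 4 exposed animals fell into a higher and a lower pair. The fold change was 4.37 (log2 2.13, SE 0.18, limma adjusted p = 3.72e-07).

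HSP90B1 encodes GRP94, the Hsp90 of the ER, which folds Toll-like receptors and integrins among others. It was measured at 518, 477, 682 and 650 CPM in preterm controls and at 1641, 2189, 2012 and 2457 CPM in LPS 16h, in the same order of animals. The groups did not overlap, and HSP90B1 rose 3.57-fold (log2 1.84, SE 0.15, adjusted p = 2.05e-07). CALR encodes calreticulin, a calcium-binding chaperone for glycoproteins. Its levels were 709, 620, 833 and 788 CPM in preterm controls and 1653, 2254, 2014 and 2106 CPM in LPS 16h. Again every exposed animal was above every control, and the rise was 2.72-fold (log2 1.44, SE 0.12, adjusted p = 3.19e-07).

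PDIA4, also called ERp72, forms and exchanges disulfide bonds in folding proteins. Control animals had 132, 108, 146 and 170 CPM and LPS 16h animals had 483, 678, 658 and 696 CPM. Animal 026 stood below the other 3 exposed animals and was still far above the controls. PDIA4 rose 4.53-fold (log2 2.18, SE 0.15, adjusted p = 4.03e-08).

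DNAJB9 and SDF2L1 work with BiP. DNAJB9, or ERdj4, is a J-domain co-chaperone that directs misfolded proteins to degradation and restrains IRE1. It had 35.2, 29.7, 36.7 and 22.8 CPM in the preterm controls and 76.4, 88.6, 86.4 and 122 CPM in LPS 16h. The groups were separate, and the rise was 3.0-fold (log2 1.59, SE 0.17, adjusted p = 2.61e-06). SDF2L1 is a small ER protein that stabilizes J-domain co-chaperones. Its control values were 5.58, 4.53, 7.70 and 8.91 CPM, and its LPS 16h values were 26.9, 55.1, 32.8 and 37.5 CPM. It showed the highest fold change of the 10 genes, 5.65 (log2 2.50, SE 0.27, adjusted p = 4.12e-06), and also the widest interval among the 8 separated genes (95% 1.92 to 3.08 on the log2 scale).

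HERPUD1 encodes a membrane protein that gathers the machinery of ER-associated degradation. Preterm controls had 92.4, 88.6, 100.2 and 87.6 CPM and LPS 16h animals had 156, 216, 168 and 235 CPM. The groups did not overlap, but the rise was smaller than that of the chaperones, 2.08-fold (log2 1.05, SE 0.13, adjusted p = 1.50e-05).

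**Figure D1:**
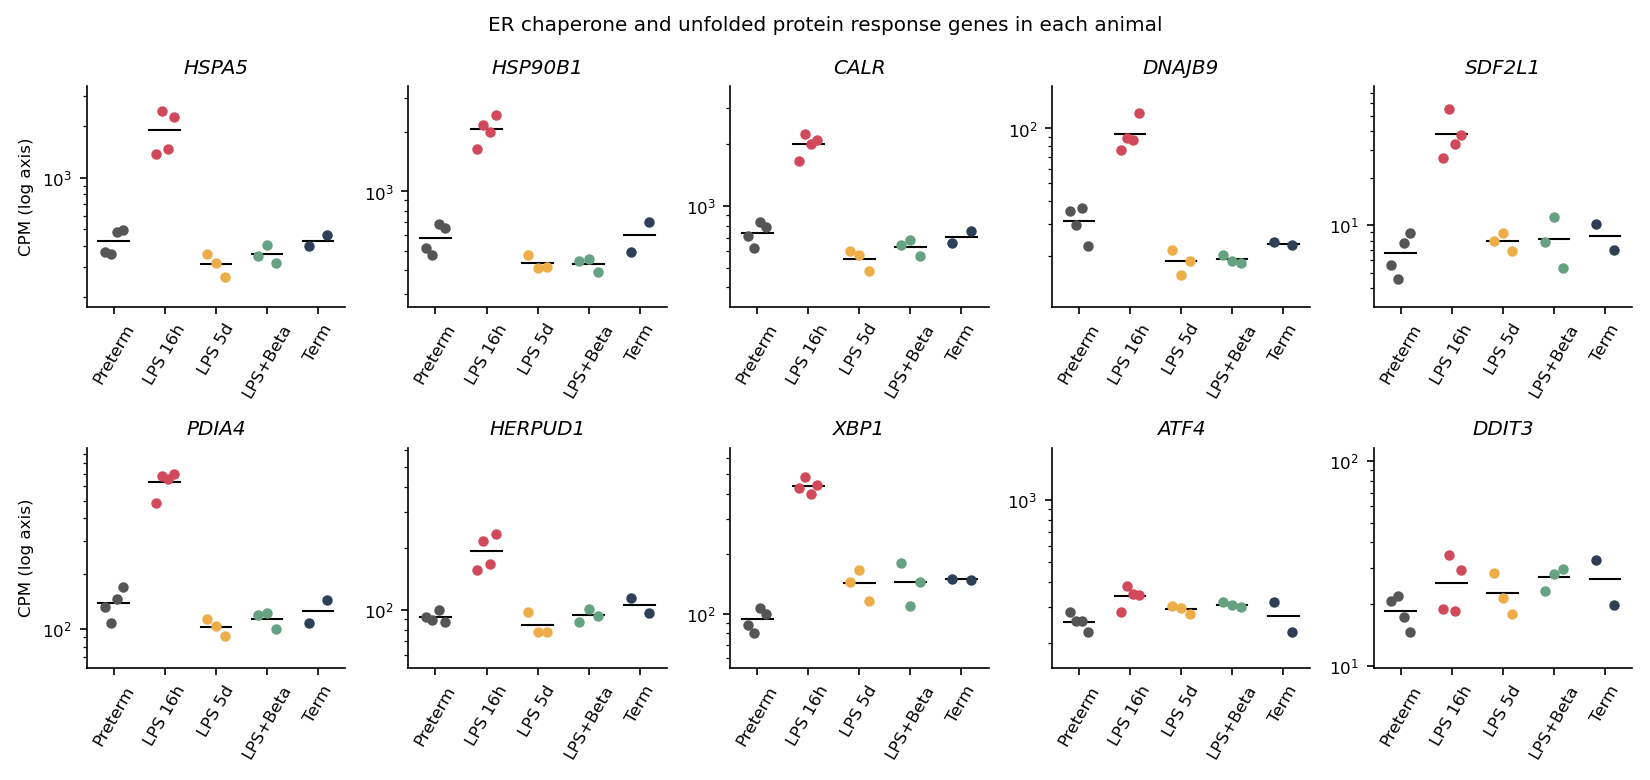
Level of each of the 10 genes in every animal, with CPM on a log axis, 1 point per animal and a black bar for the group mean (Preterm, preterm controls, n = 4; LPS 16h, n = 4; LPS 5d, n = 3; LPS+Beta, LPS + Beta-Ac 5d, n = 3; Term, term controls, n = 2). The LPS 16h points stand above all other animals in 8 of the panels, while in ATF4 and DDIT3 they overlap the preterm controls.

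Among the transcription factors, XBP1 moved with the chaperones. Its levels were 88.2, 79.7, 107 and 99.7 CPM in preterm controls and 426, 486, 399 and 443 CPM in LPS 16h, a narrow spread in both groups. The rise was 4.70-fold (log2 2.23, SE 0.15), and its adjusted p of 2.12e-08 was the smallest of the 10. ATF4 differed far less: controls had 284, 256, 255 and 226 CPM and LPS 16h animals had 283, 379, 348 and 344 CPM. Animal 026 lay within the control range, and the 1.32-fold rise (log2 0.40, SE 0.12, adjusted p = 0.0120) did not pass when libraries were scaled by their totals alone (log2 0.20, adjusted p = 0.117).

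DDIT3 had 20.6, 21.8, 17.2 and 14.5 CPM in preterm controls and 18.9, 34.8, 18.4 and 29.2 CPM in LPS 16h. Animals 029 and 038 were above all controls while 026 and 035 lay among them. The difference was 0.41 on the log2 scale (SE 0.23, 95% interval -0.08 to 0.90, adjusted p = 0.176), an interval that holds no change and stays below the estimates of the 8 separated genes.

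The size of the change in the 10 genes differed between the exposed animals, a description that was not tested. Animal 029 was among the 2 highest LPS 16h animals for all 10 genes and animal 038 for 9 of them, while animal 026 was the lowest for 8. The median change of the 10 genes against the preterm mean was 1.42 in animal 026, 1.65 in 035, 1.77 in 029 and 2.04 in 038 on the log2 scale. The lowest of these was far above the highest preterm control, which stood at 0.19. The order of the animals was another in the pathway lists described below. There animal 029 had the lowest LPS 16h median for sensors (0.21), ER folding (0.60), degradation (0.30) and the integrated stress response (0.56). For ER entry and exit its median was the highest (0.80), and for heat shock proteins (0.83) it lay between the others.

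Other markers of the tissue moved at the same time. The summed level of 12 neutrophil and monocyte markers was 108 to 262 CPM in preterm controls and 2256 to 3049 CPM in LPS 16h, with 9 of 12 rising and none at 0 in LPS 16h. Of 10 macrophage markers 7 rose (63.2 to 95.7 CPM against 161 to 303 CPM, with MARCO at 0 in every preterm control), and of 10 fibroblast markers 6 fell (12504 to 21398 CPM against 8636 to 12247 CPM). Alveolar type 2 markers rose in 6 of 10 and fell in 1, with overlapping sums of 7178 to 12480 and 10651 to 24711 CPM. Endothelial markers fell in 3 of 8 and rose in none, with separate sums of 2240 to 2749 CPM in controls and 1836 to 2194 CPM in LPS 16h. Plasma and B cell markers, whose cells are rich in ER, rose in 1 of 10 and summed to 20.2 to 30.1 CPM in controls and 30.2 to 50.8 CPM in LPS 16h. The 1 that rose was DERL3, itself a gene of ER-associated degradation. The part of these cell types in the rise of the 10 genes was not tested. In whole lung tissue, fewer cells of a type and less RNA per cell cannot be told apart, nor can more cells and more RNA per cell.

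The wider pathway was described with 6 lists that share no gene with the 10, together 156 tested genes, of which 103 rose and 8 fell at 16 hours (median log2 change 0.62). These counts are 66% and 5.13% of the 156, beside 18.7% and 19.6% of all genes. Of the sensors and proteases that start the response, 3 of 6 rose and none fell, with a list median of 0.23. ERN1 reached 115 CPM against 41.7 CPM (log2 1.43, SE 0.17, adjusted p = 9.56e-06), EIF2AK3 45.3 against 23.1 CPM (log2 0.97, SE 0.12, adjusted p = 1.32e-05), and ATF6 173 against 119 CPM (log2 0.54, SE 0.09, adjusted p = 0.000284). ATF6B, ERN2 and the protease gene MBTPS1 did not pass (log2 -0.26, -0.11 and -0.08).

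Among the other ER folding factors 21 of 31 rose and 2 fell, with a median of 0.75. CRELD2, a disulfide-related ER protein, rose from 15.6 to 191 CPM (log2 3.59, SE 0.28, adjusted p = 1.78e-07), a log2 change above that of any of the 10 genes. HYOU1, the nucleotide exchange factor of BiP, rose from 106 to 645 CPM (log2 2.58, SE 0.16), and MANF, a BiP cofactor that is secreted under ER stress, from 47.8 to 203 CPM (log2 2.03, SE 0.19). The 2 that fell, FKBP9 (log2 -0.66, SE 0.11) and FKBP7 (log2 -0.57, SE 0.16), are prolyl isomerases of the ER.

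ER-associated degradation rose in 12 of 23 genes and fell in none, with a lower median of 0.30. DERL3, a derlin of the export channel, rose from 3.13 to 7.99 CPM (log2 1.38, SE 0.26). It is also the 1 plasma and B cell marker that rose. VCP, the ATPase that pulls proteins out of the ER, rose from 304 to 621 CPM (log2 1.03, SE 0.09), and SYVN1, the ubiquitin ligase Hrd1, from 88.6 to 181.8 CPM (log2 1.03, SE 0.11).

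Genes for entry into and exit from the ER rose in 25 of 31 and fell in 1 (median 0.66). SEC11C, a signal peptidase subunit, rose from 10.7 to 51.6 CPM (log2 2.28, SE 0.16). SRPRB, a subunit of the signal recognition particle receptor, rose from 36.2 to 149 CPM (log2 2.03, SE 0.12), and SEC24D, of the COPII vesicle coat, from 48.5 to 198 CPM (log2 2.01, SE 0.18). SEC62, a translocon partner that also acts in ER turnover, was the 1 that fell (log2 -0.36, SE 0.12, adjusted p = 0.0315), with overlapping groups. Its call held in 9 of 17 alternative settings, with a limma adjusted p of up to 0.102.

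The integrated stress response list holds ATF4 targets and other genes of this response. Among the latter are the eIF2-alpha kinase genes EIF2AK1, EIF2AK2 and EIF2AK4, and EIF2S1, which encodes eIF2-alpha itself. Of the 43 genes of the list 27 rose and 2 fell (median 0.84), while ATF4 mRNA itself changed little and DDIT3 did not pass. ATF4 targets alone were not counted. SLC7A5, a transporter of large neutral amino acids, rose from 1.77 to 23.2 CPM (log2 3.60, SE 0.28, adjusted p = 1.21e-07). SLC7A11, the cystine transporter, went from 0.189 to 1.72 CPM on few counts (log2 2.89, SE 0.47), and WARS1, a tRNA synthetase that interferon-gamma also induces, from 102 to 854 CPM (log2 2.86, SE 0.30). VLDLR (log2 -0.51, SE 0.14) and PSPH (log2 -0.46, SE 0.12), an enzyme of serine synthesis, fell. For VLDLR the groups overlapped, and its limma adjusted p was up to 0.0529 in other settings. Chosen after their values were seen, because they are widely used readouts of this branch, ATF3 (log2 2.61), CHAC1 (2.52), PPP1R15A (1.47), TRIB3 (1.44) and ASNS (1.02) also rose, while PSAT1 (log2 1.01, adjusted p = 0.0509) and PHGDH (0.22, adjusted p = 0.621) did not pass. Several of these, ATF3 among them, respond to inflammatory signals as well.

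Heat shock proteins of the cytosol and mitochondria rose in 15 of 22 and fell in 3 (median 0.76), so the rise of folding genes was not limited to the ER. HSPA8, the constitutive cytosolic Hsp70, rose from 872 to 2200 CPM (log2 1.33, SE 0.21), HSPH1, its exchange factor, from 64.0 to 155 CPM (log2 1.29, SE 0.29), and HSPA9, the mitochondrial Hsp70, from 114 to 279 CPM (log2 1.28, SE 0.10). CRYAB (log2 -1.13, SE 0.24), HSPA1L (-0.85, SE 0.22) and DNAJB4 (-0.70, SE 0.15) fell. Reads of HSPA8, which has many near-identical copies, and of HSPA1L, whose close paralogs were not matched to a row here, could be split between genes in the counting.

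**Figure D2:**
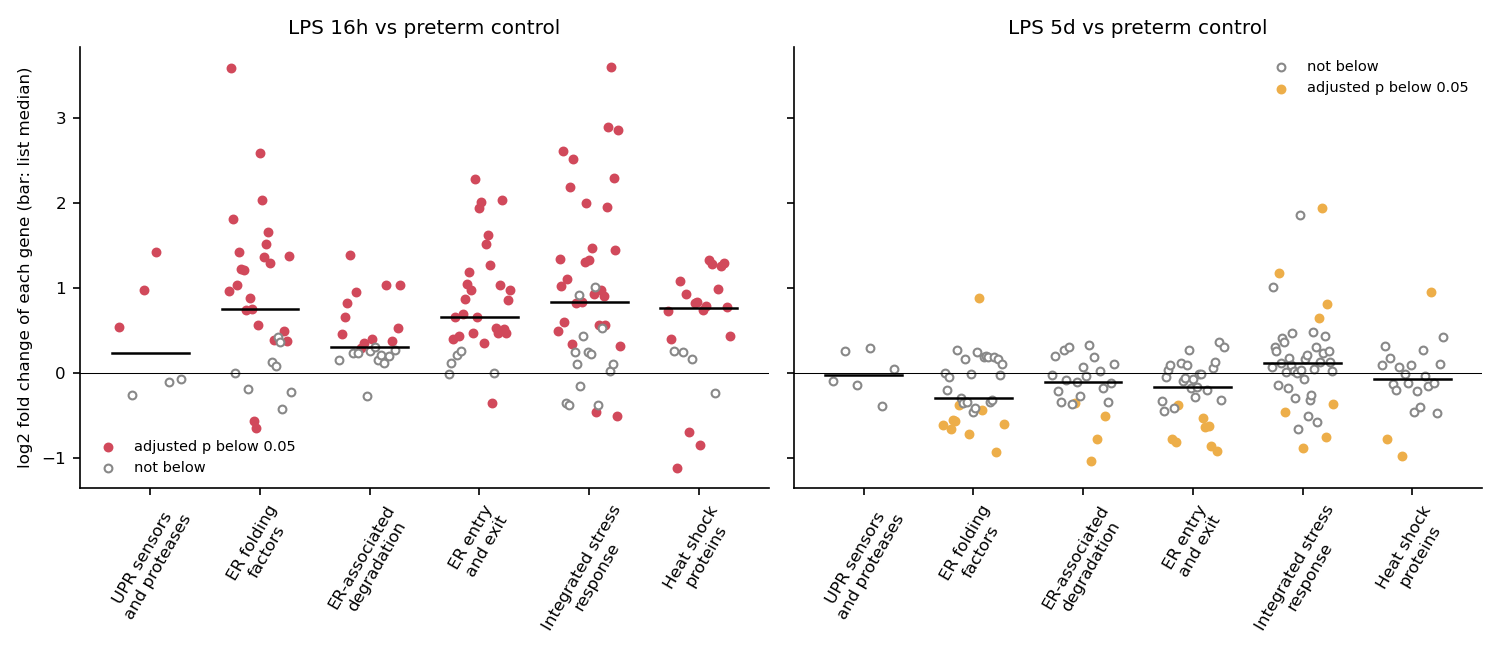
Log2 fold change of each gene of the 6 pathway lists against preterm controls, 16 hours after LPS (left) and 5 days after LPS (right), with filled points for adjusted p below 0.05 and a bar at the list median. At 16 hours all 6 medians lie above 0, from 0.23 to 0.84, and at 5 days they lie between -0.30 and 0.12.

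At 5 days after LPS, no chaperone was above control by the test. Of the 10 genes, 1 rose (XBP1) and 2 fell (DNAJB9 and CALR), against 5.49% of all genes higher and 9.23% lower. None passed with the 2-fold minimum, which 2.6% of all genes passed upwards and 2.23% downwards. XBP1 alone among the 10 had all LPS 5d animals above all controls and 3 had them below, as had 13.5% and 15.6% of all genes. The median log2 change was -0.28, and over all genes it was -0.0018. XBP1 had 145, 165 and 115 CPM in LPS 5d (animals 239, 240 and 242), all above the preterm controls, and its rise was 1.51-fold (log2 0.59, SE 0.16, adjusted p = 0.0215). That call was lost without animal 092, 101, 239 or 240, with adjusted p between 0.0558 and 0.120.

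DNAJB9 went below control, at 21.5, 15.8 and 18.7 CPM, with no animal above the lowest control at 22.8 CPM. The fall was 1.65-fold (log2 -0.72, SE 0.18, adjusted p = 0.0143), and without animal 240 it did not pass (adjusted p = 0.0814). CALR, at 599, 575 and 481 CPM, also lay below all 4 controls (log2 -0.42, SE 0.13, adjusted p = 0.0482), a call at the edge of the threshold, with an adjusted p of up to 0.191 (without animal 242) in other settings. Both were above control in LPS 16h, which are other animals.

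The other chaperones had estimates of like size that did not pass. HSPA5 was at 357, 319 and 263 CPM (log2 -0.44, 95% interval -0.86 to -0.01, adjusted p = 0.167). HSP90B1 stood at 473, 410 and 411 CPM, below every control (log2 -0.42, adjusted p = 0.102), and PDIA4 at 113, 104 and 91.2 CPM (log2 -0.42, adjusted p = 0.104). SDF2L1 (7.95, 8.94 and 6.83 CPM) and HERPUD1 (97.1, 77.7 and 77.5 CPM) overlapped the controls, with log2 changes of 0.28 (interval -0.34 to 0.91) and -0.14 (-0.44 to 0.16). ATF4 had 304, 297 and 279 CPM (log2 0.21, -0.06 to 0.47) and DDIT3 28.4, 21.3 and 17.9 CPM (0.27, -0.26 to 0.80).

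Of the 156 pathway genes, 6 rose (3.85%) and 27 fell (17.3%) at 5 days, beside 5.49% and 9.23% of all genes. Without animal 240, 13 fell, while 3 rose and 16 fell without animal 239. Most falls lay in ER folding (9 of 31 or 29%, with 1 rise), ER entry and exit (8 of 31 or 25.8%) and ER-associated degradation (4 of 23 or 17.4%), and no sensor passed. TMX1, a thioredoxin-like ER membrane protein, went from 52.2 to 26.7 CPM (log2 -0.93, SE 0.20, adjusted p = 0.00528), FKBP9 from 179 to 108 CPM (log2 -0.72) and DNAJC10, a disulfide reductase, from 141 to 88.7 CPM (log2 -0.67). PDIA5 was the folding gene that rose (log2 0.88, SE 0.22). SSR1 (log2 -0.92) and SPCS3 (-0.87), which act at the translocon and as signal peptidase, fell with the cargo receptor LMAN1 (-0.82), and RNF139 (-1.05), SEL1L (-0.78) and UBE2J1 (-0.52) of the degradation machinery fell too. Without single animals some of these calls were lost, namely DNAJC10 (without 113, 239 or 240), PDIA5 and SEL1L (239 or 240) and UBE2J1 (240).

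Integrated stress response genes were 4 higher and 4 lower of 43 at 5 days, or 9.3% each way, near the 5.49% and 9.23% of all genes. SLC7A11 (log2 1.94, on few counts), BBC3 (1.17) and TNFRSF10B (0.81), the latter 2 coding for death-promoting proteins, rose. MTHFD2 (-0.89), STC2 (-0.76) and CEBPG (-0.46) fell. SLC7A11 did not pass without animal 092, 239 or 242, STC2 without 101, 209, 239 or 240, and CEBPG without 240. Of 22 heat shock genes HSPB8 rose (0.94) while DNAJB4 (-0.98) and CHORDC1 (-0.78) fell, 4.55% and 9.09% of the list and so close to the share in all genes. At this time 5 of 12 neutrophil and monocyte markers rose and none fell, although their sum of 224 to 257 CPM lay within the control range. Macrophage markers rose in 5 of 10, with sums of 143 to 206 CPM above every control. Alveolar type 2 markers rose in 7 of 10 and fell in 1 (17083 to 31677 CPM, above every control), and proliferation markers fell in 8 of 10 (94.4 to 106 CPM against 172 to 241 CPM). Their part in these values was not tested.

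**Figure D3:**
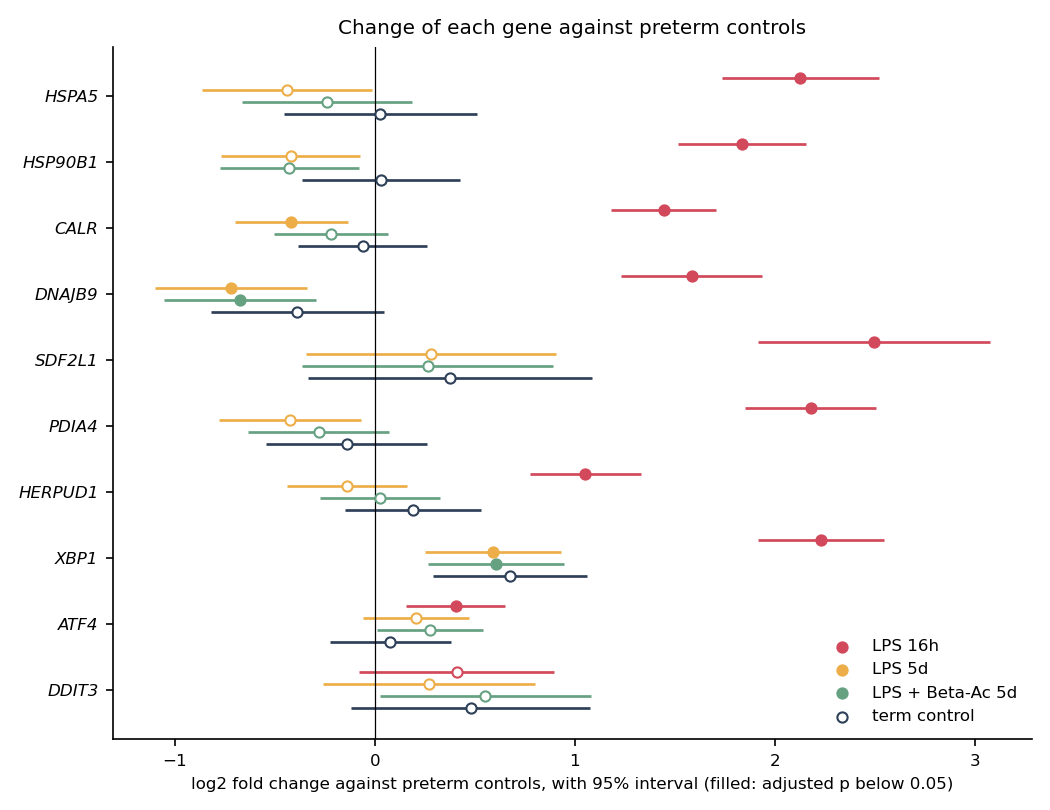
Log2 fold change of each of the 10 genes against preterm controls with its 95% interval, for LPS 16h, LPS 5d, LPS + Beta-Ac 5d and term controls, with filled points where adjusted p was below 0.05. Among the upper 8 genes the lowest bound of an LPS 16h interval is 0.78 (HERPUD1), and in the 3 other groups XBP1 has the highest estimate of the 10 genes, 0.59, 0.61 and 0.67.

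The direct test between the exposed groups gave the size of the difference between 16 hours and 5 days, which were sampled in different animals. Of the 10 genes, 8 were higher at 16 hours than at 5 days and none lower, against 19.4% and 15.6% of all genes, with a median difference of 2.04 (-0.034 over all genes). All 8 passed the 2-fold minimum (8.05% of all genes higher, 6.61% lower), and their groups did not overlap, which held for 21% of all genes upwards and 19% downwards. Rises made up 55.4% of all calls in this comparison, and 35.4% when libraries were scaled by their totals alone, where the same count of 8 was found. PDIA4 was 6.08-fold higher (log2 2.60, SE 0.17, adjusted p = 4.10e-08), HSPA5 5.92-fold (log2 2.56, SE 0.20) and DNAJB9 4.94-fold (log2 2.30, SE 0.18). HSP90B1 (4.77-fold), SDF2L1 (4.65-fold), CALR (3.63-fold), XBP1 (3.12-fold) and HERPUD1 (2.29-fold) followed. For ATF4 and DDIT3 the differences were 0.20 (95% interval -0.07 to 0.47) and 0.14 (-0.39 to 0.67), neither past the test. Of the 156 pathway genes 104 were higher at 16 hours (66.7%) and 5 lower (3.21%), beside the 19.4% and 15.6% of all genes.

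Animals that also received Beta-Ac had levels close to those of LPS 5d. Against preterm controls XBP1 rose and DNAJB9 fell, 1 gene in each direction, beside 7.09% and 10.2% of all genes, and neither reached the 2-fold minimum, which 4.05% and 2.43% of all genes passed. The groups did not overlap for 3 genes upwards and 2 downwards, beside 14.7% and 16.1% of all genes. XBP1 had 179, 110 and 145 CPM (animals 248, 249 and 255), a 1.52-fold rise (log2 0.61, SE 0.16, adjusted p = 0.0160) that was lost without animal 248 or 255 (adjusted p = 0.102 and 0.0504). DNAJB9 had 20.4, 18.7 and 18.4 CPM, a 1.59-fold fall (log2 -0.67, SE 0.18, adjusted p = 0.0167). Without animal 092, 113, 249 or 255 it did not pass.

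HSPA5 was at 350, 405 and 318 CPM (log2 -0.24, 95% interval -0.67 to 0.18) and HSP90B1 at 444, 453 and 388 CPM, below all controls (log2 -0.43, adjusted p = 0.0863). CALR had 645, 680 and 569 CPM, PDIA4 119, 122 and 99.3 CPM, SDF2L1 7.79, 11.3 and 5.32 CPM and HERPUD1 87.2, 101 and 93.4 CPM, all overlapping the controls. ATF4 (318, 306 and 301 CPM) and DDIT3 (23.2, 28.2 and 29.8 CPM) were above every control in all 3 animals, yet did not pass (log2 0.28, adjusted p = 0.149, and 0.55, adjusted p = 0.147). DDIT3 passed when only these 2 groups were fitted (log2 0.54, adjusted p = 0.0401). Pathway genes rose in 9 (5.77%) and fell in 23 (14.7%) of 156, beside 7.09% and 10.2% of all genes. Stress response genes rose in 7 of 43 (16.3%) and fell in 1 (2.33%). Among the risen were GDF15 (log2 3.50, SE 0.74, from 0.695 to 8.82 CPM), SLC7A11 (2.59) and SLC7A5 (1.76). Here too ER folding (8 lower or 25.8%, 1 higher), ER entry and exit (8 lower or 25.8%) and degradation (4 lower or 17.4%) held most of the falls. TMX1 (log2 -0.90), SSR1 (-0.83), SEL1L (-0.83) and RNF139 (-0.97) were among them. The count of 23 falls became 12 without animal 249, when SEL1L did not pass, 14 without 113 or 248 and 15 without 255. Neutrophil and monocyte markers rose in 9 of 12 (391 to 665 CPM) and macrophage markers in 9 of 10 (311 to 566 CPM), both above every preterm control. Alveolar type 2 markers rose in 7 of 10 and fell in 1 (19450 to 32456 CPM). Plasma and B cell markers rose in 3 of 10 and fell in 0 (36.0 to 66.9 CPM). These sums too were above every preterm control. Fibroblast markers fell in 5 of 10 and proliferation markers in 7 of 10. The part of all these markers was not tested.

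The effect of adding Beta-Ac to LPS did not pass the limma test for any of the 10 genes. None had an unadjusted p below 0.05, none passed with limma-voom weights, and 0.104% of all genes were higher and 0% lower. The groups overlapped for all 10 genes, where 6.34% of all genes were separated upwards and 5.05% downwards. Estimates for LPS + Beta-Ac 5d minus LPS 5d ran from -0.02 (SDF2L1, 95% interval -0.69 to 0.65) to 0.28 (DDIT3, -0.28 to 0.84). For HSPA5 the estimate was 0.20 (-0.26 to 0.65), for XBP1 0.02 (-0.35 to 0.38), and for HSP90B1 -0.01 (-0.38 to 0.36). The upper bounds ran from 0.36 (ATF4 and HSP90B1) to 0.84 (DDIT3) and the lower bounds from -0.11 (CALR) to -0.69 (SDF2L1). With 3 animals against 3, differences inside the interval of each gene are not excluded. None of the 156 pathway genes passed, and 4 had an unadjusted p below 0.05.

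Between term and preterm lung the estimates of 9 of the 10 genes were below 0.5 in size on the log2 scale. None of the 10 passed with limma, 1 had an unadjusted p below 0.05, and 1.42% of all genes were higher and 2.57% lower (1.11% and 0.952% with the 2-fold minimum). That 1 gene was XBP1, at 150 and 147 CPM (animals 200 and 201), with both animals above every preterm control, a separation that 11.2% of all genes had upwards and 15.2% downwards (log2 0.67, SE 0.18, adjusted p = 0.0501). It passed when libraries were scaled by the median of ratios (adjusted p = 0.0450), by their totals (0.0316) or thinned to the smallest library (0.0454). By totals alone 51.1% of all calls were rises, in place of 35.6%. HSPA5 had 399 and 461 CPM (log2 0.03, 95% interval -0.45 to 0.51), HSP90B1 493 and 701 CPM, CALR 657 and 753 CPM, PDIA4 108 and 143 CPM, and HERPUD1 114 and 96.4 CPM. DNAJB9 stood at 23.8 and 22.9 CPM (log2 -0.39, -0.82 to 0.04), SDF2L1 at 10.2 and 6.92 CPM, ATF4 at 318 and 227 CPM and DDIT3 at 32.9 and 19.9 CPM. Of the 156 pathway genes CEBPB, a transcription factor of inflammation and development, rose (log2 1.2, SE 0.22), and FKBP10 (-0.64), FKBP9 (-0.63), SSR1 (-0.58), KDELR2 (-0.47) and MTHFD2 (-0.75) fell. That is 0.641% higher and 3.21% lower, near the 1.42% and 2.57% of all genes. The count of 5 falls became 0 without animal 092, 113 or 200, 1 without 201, 2 without 101 and 9 without 209. The rise of CEBPB was lost without 200, and the count of rises was 4 without 201. In term lung 8 of 10 proliferation markers and 5 of 10 fibroblast markers fell and 6 of 12 neutrophil and monocyte markers rose (326 to 337 CPM), and their part was not tested.

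In order of mean level, HSPA5 ran from LPS 5d (313 ± 47.1 CPM, SD, n = 3) through LPS + Beta-Ac 5d (358 ± 43.7, n = 3), preterm controls (425 ± 71.8, n = 4) and term controls (430 ± 43.8, n = 2) to LPS 16h (1897 ± 546, n = 4). Neighbours among the first 4 groups overlapped, and the step to LPS 16h did not. XBP1 had another order, with preterm controls lowest (93.6 ± 12 CPM, n = 4), then LPS 5d (142 ± 25.3, n = 3), LPS + Beta-Ac 5d (144 ± 34.4, n = 3) and term controls (149 ± 1.73, n = 2), which all overlapped, and LPS 16h highest (439 ± 36.6, n = 4). In all 8 animals of LPS 5d, LPS + Beta-Ac 5d and term controls XBP1 was above every preterm control, while HSPA5 was within or below the control range in each.

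**Figure D4:**
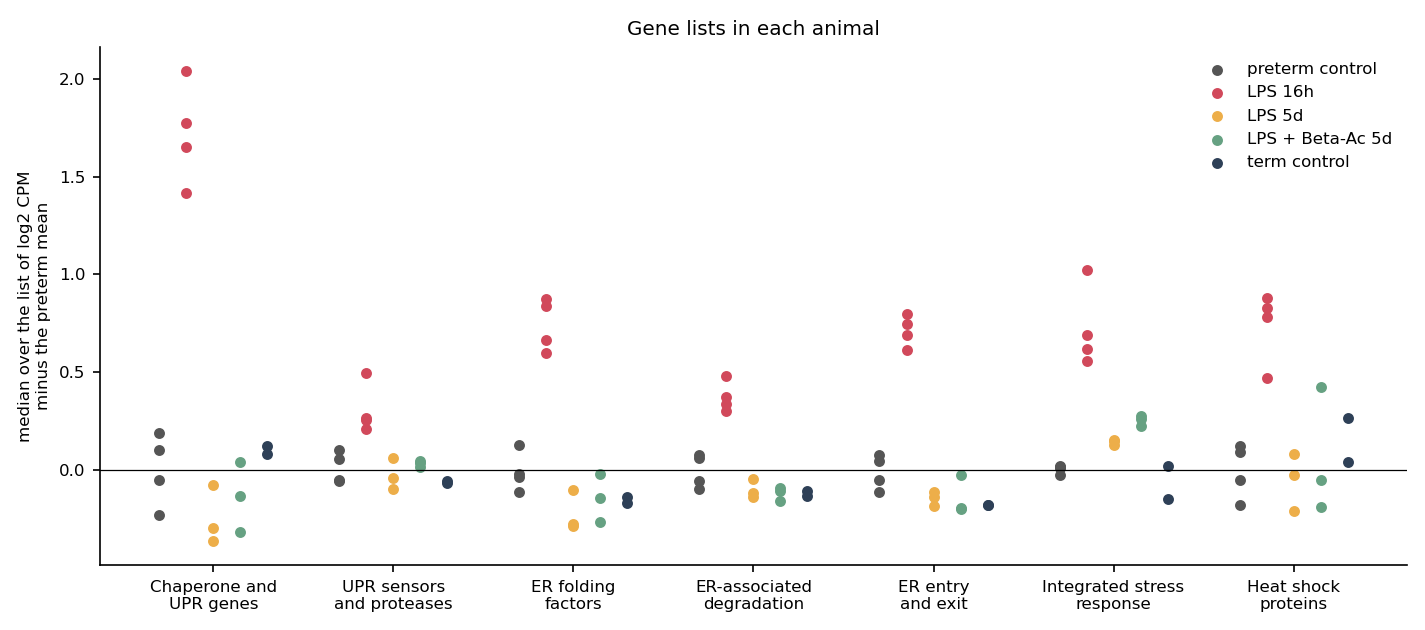
Median over each gene list of log2 CPM minus the preterm mean, 1 point per animal, for the 10 genes (left) and the 6 pathway lists, coloured by group. In the 10 genes LPS 16h animals lie at 1.42 to 2.04 and all others between -0.37 and 0.19, and in each list the LPS 16h animals are above every other.

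The genes whose log2 CPM followed HSPA5 most closely over the 16 animals were MANF, DNAJB11, CALR, TCP1, PDIA4, AMDHD1, HSP90B1, LLPH, HSPD1 and CCT6A (Pearson's r 0.983 to 0.994). Of them, CALR, PDIA4 and HSP90B1 belong to the 10 genes, MANF and DNAJB11 are ER folding factors, and TCP1, CCT6A and HSPD1 encode chaperonins of cytosol and mitochondria. Since the LPS 16h animals stand apart, these values mostly mirror that separation, and over the 12 other animals r was 0.669 (LLPH) to 0.962 (CALR). Over those 12 animals HSPA5 had an r of 0.910 with PDIA4 and 0.888 with HSP90B1. With HERPUD1, DNAJB9 and SDF2L1 it was lower, at 0.56, 0.49 and 0.31. It was -0.21 with XBP1, -0.27 with DDIT3 and -0.56 with ATF4. The animals share the group differences described above, so the values are descriptions without a test.

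DDIT3, which did not separate the LPS 16h animals, had no neighbour of that closeness over the 16 animals. Its 10 nearest genes, led by VRK3, PCGF1 and ILKAP, had an r of 0.763 to 0.825 over the 16 animals, and none of them is in the 6 pathway lists or among the 10 genes. Over the 12 animals outside LPS 16h their r was 0.743 (SAT1) to 0.867 (MYH15). The neighbours were picked as the highest r over all 16 animals, which include these 12. For HSPA5 that choice rested mostly on the LPS 16h animals, so the r values of DDIT3 and HSPA5 neighbours over the 12 are not comparable. What r chance gives to the nearest of so many genes was not assessed, so these neighbours are a description only.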

How the data were processed

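The authors extracted RNA from frozen left lung, selected poly(A) RNA, sequenced it as paired reads of 75 bp, quantified it with kallisto on the rhesus build Mmul_10, summed it to genes with tximport and compared groups with DESeq2. The values they deposited are counts, whole numbers for each Ensembl gene in each animal, neither normalized nor filtered. Not given in the sources used here are tool versions, the annotation release and any rounding of estimated counts. The layout of the deposited table (bare numbers as column names) kept its unit from being recorded as counts in the automatic check, so it was recorded as other and no count model was run.

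Ensembl IDs were matched to symbols with a table of gene names: 17256 IDs had a symbol and 5259 had none. Counts were scaled by TMM (trimming 30% of log ratios and 5% of mean values), turned into log2 CPM with a prior count of 2, and fitted with limma 3.58.1 (trend and robust options) in R 4.3.3, with 1 mean per group and all 16 animals. Tested genes had 0.363 CPM or more in 2 or more animals, which is 10 counts in a library of median size, and 15 or more counts overall. All tests are two-sided and their p-values were adjusted over 19215 genes. Replicates are different animals with 1 library each, and no pair of libraries in a group agreed within sampling noise. Intervals are 95% intervals of the fit. The fit was tested before use on simulated data in which few genes changed, as many upwards as downwards. That test does not cover the scaling of a comparison in which many genes differ, such as LPS 16h against preterm controls.

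The 10 genes, the pathway lists and the marker lists were chosen with earlier results of these data known, so no result here is independent support for a pattern seen before. Named pathway genes are the up to 3 per list, direction and comparison against preterm controls with the largest log2 change among those that passed, and those said to be chosen otherwise. Symbols with no row (TXNDC5, FKBP11, MBTPS2, SELENOS, NUPR1, HSPA1A and HSPA1B among them) or with several IDs (PDIA3, ERP29, HSPE1) were left out. No fold change is given for a gene with a group mean under 4 counts. No gene sequence or coordinate was used, and animals given Beta-Ac alone were not analysed here. Marker lists for airway, endothelial, erythroid and proliferating cells were also summed. Alternatives were median-of-ratios scaling, library totals alone, no filter, a prior count of 0.5, limma-voom, no robust option, the 2-fold minimum of the study, only the compared groups, and leaving out each animal. Thinning all libraries to the smallest total was added after the data were seen, because the LPS 16h libraries are deeper.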

Additional observations from a re-analysis of the deposited data

Results flagged for a closer look

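For 8 of the 10 genes the effect of LPS against preterm controls differed between 16 hours and 5 days by a direct limma test, in which the shared controls cancel. The effect at 16 hours minus that at 5 days, on the log2 scale, was 2.60 for PDIA4 (adjusted p = 4.10e-08), 2.56 for HSPA5 (2.14e-07), 2.30 for DNAJB9 (2.06e-07), 2.25 for HSP90B1 (1.10e-07), 2.22 for SDF2L1 (3.59e-05), 1.86 for CALR (1.02e-07), 1.64 for XBP1 (1.84e-06) and 1.19 for HERPUD1 (1.19e-05). All 4 LPS 16h animals were above all 3 LPS 5d animals for each of the 8, where 21% of all tested genes had groups that did not overlap in this direction. ATF4 (0.20) and DDIT3 (0.14) did not pass this test.

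PDIA4 in LPS 16h animal 026 lay apart from its group, at 8.92 log2 CPM with the nearest animal at 9.36. Its gap was 0.847 of the group's range, over the 95% limit of Dixon's test for 4 samples, which chance exceeds in about 1 in 20 groups. Without that animal the log2 change of PDIA4 at 16 hours was 2.30.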

How the results depend on the processing

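At 16 hours the count of the 10 genes that rose was 9 in all settings but library totals alone (8) and the 2-fold minimum (8), no gene fell, and against LPS 5d the counts of 8 and 0 held throughout. Library totals alone moved the median of all genes at 16 hours from -0.087 to -0.288 (log2), and no direction of the 9 risen genes changed. With the 2-fold minimum, the counts of pathway genes became 48 higher and 1 lower at 16 hours, 2 and 1 at 5 days, 4 and 0 with LPS + Beta-Ac, 0 lower at term, and 57 and 2 for 16 hours against 5 days, while the counts of the 10 genes at 5 days and with LPS + Beta-Ac became 0 in both directions. Library totals alone gave 18 lower pathway genes at 16 hours. At 5 days the 2 lower genes of the 10 became 1 with median-of-ratios scaling, no filter, thinning or only the compared groups, which also gave 12 higher pathway genes. With LPS + Beta-Ac only the compared groups gave 2 higher genes of the 10. At term 1 of the 10 was higher with median-of-ratios scaling, library totals or thinning. Lower pathway genes at term were 2 with totals or limma-voom, 3 with thinning and 0 with only the compared groups, which also gave 0 higher.

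Leaving out 1 animal at a time gave, at 5 days, 0 to 1 higher genes of the 10 (0 without 092, 101, 239 or 240) and 0 to 3 lower (0 without 240), with 3 to 6 higher pathway genes (3 without 239) and 13 to 27 lower (13 without 240, 16 without 239). With LPS + Beta-Ac it gave 0 to 1 higher (0 without 248 or 255) and 0 to 1 lower of the 10 (0 without 092, 113, 249 or 255), and 12 to 23 lower pathway genes (14 without 113 or 248, 12 without 249, 15 without 255). At term it gave 0 to 1 higher of the 10 (1 without 209), 0 to 4 higher pathway genes (0 without 200, 4 without 201) and 0 to 9 lower (9 without 209, 2 without 101, 1 without 201, 0 without 092, 113 or 200). Where it leaves 1 term animal, that animal is assumed to vary like the other groups. For single genes, 82 calls were lost and 2 gained without 1 animal, while 820 results stayed the same. In other settings 76 were lost and 4 gained, while 1071 stayed the same. These settings include the 2-fold minimum, under which every passed change below 2-fold counts as lost by definition. No gene past the threshold changed sign, but 10 results that had not passed did so in 1 or more settings: HSPA5, HSP90B1, CALR, PDIA4 and ATF4 at term, HSP90B1, DNAJB9, SDF2L1 and XBP1 for added Beta-Ac, and DDIT3 for 16 hours against 5 days. ATF4 at term moved from 0.08 to -0.16 without 200 and 0.32 without 201, and for 16 hours against 5 days from 0.20 to 0.01 with library totals alone. The causes were not tested, and small groups limit what can be detected beyond 16 hours. No paired analysis was possible because the groups share no animal numbers.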
